A study of Homo sapiens with 6 samples.

Results

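The genes that build, attach and remodel the glycosylphosphatidylinositol (GPI) anchor were examined in RNA-seq libraries of HCT116, a human colorectal cancer line, with and without overexpression of cytoglobin (CYGB), a haem protein of the globin family. The set holds 31 genes of the 40173 in the deposited table. They were found by their gene symbols, and PGAP1 was put in the set because of its difference between these same libraries. The CYGB group carried a lentivirus with the CYGB coding region fused with FLAG on the wild type background, and the MOCK group carried the MOCK virus without it. Both groups had gone through puromycin selection as stable lines, and neither had a further treatment. Each group had 3 libraries, labelled as biological replicates. Whether these came from separate transductions is not given in the sources used here, so p-values measure the spread between these libraries only.

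A GPI anchor is a glycolipid that tethers proteins such as folate receptors, the complement regulators CD55 and CD59 and the prion protein to the outer face of the plasma membrane. It is assembled sugar by sugar on phosphatidylinositol in the endoplasmic reticulum and is then attached to the protein by a transamidase. PGAP1 afterwards removes the acyl chain from the inositol, which is the start of remodelling, and p24 cargo receptors carry the anchored proteins to the Golgi, where the lipid is remodelled further.

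Library totals ranged from 58138393 to 66035266 counts, and transcripts without a gene, which were left out, held 18.6 to 19.5% of them. CYGB itself checked the labels. It had 0.212, 0.530 and 0.661 CPM (counts scaled to library size) in MOCK replicates 1 to 3 and 691.5, 544.7 and 615.6 CPM in CYGB replicates 1 to 3. The epithelial markers EPCAM, KRT8, KRT18, CDH1 and CDX2 were each at 14.9 CPM or more in every library. KRT20 and VIL1, 2 markers of differentiated colon epithelium, were under 1 CPM throughout. PTPRC, CD3E, PECAM1, HBB and ALB, markers of blood cells, endothelium and liver, were at or near 0 in every library, and of the fibroblast markers COL3A1 was under 1 CPM while COL1A1 was at 44.3 to 53.7 CPM.

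PGAP1, the inositol deacylase (ENSG00000197121, minus strand of chromosome 2 in GRCh38, 196833004 to 196927796), was lower in the CYGB group. It had 607, 531 and 845 raw counts across MOCK replicates 1 to 3, against 26, 40 and 50 across CYGB replicates 1 to 3. All 3 CYGB libraries lay below all 3 MOCK libraries. Scaled to library size, this was 13.1 ± 3.19 CPM (SD, n = 3) for MOCK against 0.751 ± 0.221 CPM (SD, n = 3) for CYGB, so the CYGB level was 5.73% of the MOCK level. The lowest MOCK library was 10.6-fold above the highest CYGB library. The log2 fold change of CYGB over MOCK was -4.12 with a standard error of 0.33. This difference chose the gene for the set, so no test is given. Among the 19987 genes tested by edgeR's quasi-likelihood test, 0.285% were called lower in CYGB at the threshold of the study's methods, an unadjusted p of at most 0.01 with an expression ratio at or beyond 2 or 0.5, and nothing is read from that share for PGAP1. In bulk RNA, fewer cells with the transcript and less transcript per cell cannot be told apart.

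The table counts transcripts, so the PGAP1 difference was taken apart by transcript. The gene has 10 transcripts in the table. The full-length one, ENST00000354764, has 27 exons, a length of 11114 bases and a coding length of 2766 bases. The joins between exons that set the main transcripts apart are printed from GRCh38 with GENCODE 29 exons, 5′ to 3′ on the minus strand, to show which sequence each count stands for. In each line the lower case letters are the end of the upstream exon and the capitals are the start of the exon joined to it. Exon numbers are those of the full-length transcript.
full-length exons 1 and 2: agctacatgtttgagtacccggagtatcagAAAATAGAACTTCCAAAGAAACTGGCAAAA
ENST00000470179, exon 1 joined to exon 6: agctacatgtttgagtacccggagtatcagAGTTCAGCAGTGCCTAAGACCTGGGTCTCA
full-length exons 19 and 20: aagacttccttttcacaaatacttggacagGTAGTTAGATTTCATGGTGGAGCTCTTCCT
ENST00000409475, exon 19 joined to its own last exon: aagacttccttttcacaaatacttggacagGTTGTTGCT
full-length exons 25 and 26: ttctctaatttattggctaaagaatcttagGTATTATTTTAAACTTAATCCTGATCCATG
ENST00000422444, exon 25 joined to exon 27: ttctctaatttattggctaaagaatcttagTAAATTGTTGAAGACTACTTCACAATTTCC

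The upstream exons of the first pair end at 196926470, and the joined exons begin at 196920150 in the full-length transcript and at 196898369 in ENST00000470179. For the pair at exon 19, which ends at 196870941, the joined exons begin at 196865080 in the full-length transcript and at 196848037 in ENST00000409475, where 9 coding bases are left. For the pair at exon 25, which ends at 196843888, they begin at 196842825 and at 196841372. None of the 3 full-length joins belongs to the full-length transcript alone: the first is shared with ENST00000409475, and each of the other 2 is held by 3 transcripts. The join of exon 1 to exon 6 is also in ENST00000374738, which had 1 count in all. What the full-length transcript has alone is its 3′ end, which runs 2180 bases beyond the ends of the others. Of its windows of 150 bases, 19.9% are found in no other PGAP1 transcript.

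The full-length transcript had 337, 294 and 764 counts across MOCK replicates 1 to 3, against 1, 0 and 0 across CYGB replicates 1 to 3. It was the transcript with the most counts in every MOCK library and was near absent from the counts of every CYGB library. Its share of the gene was 55.5, 55.4 and 90.4% across MOCK and 3.85, 0 and 0% across CYGB. Over the 3 libraries of each group it had 1395 counts in MOCK and 1 count in CYGB, a ratio of 1414 after scaling to library size. This ratio rests on 1 count in CYGB and is no estimate of the size of the difference between the groups.

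The remaining transcripts together had 270, 237 and 81 counts across MOCK replicates 1 to 3, against 25, 40 and 50 across CYGB replicates 1 to 3. Here too the groups did not overlap, but MOCK replicate 3, which had the most full-length counts, had the fewest of the others among the MOCK libraries. Of these transcripts, ENST00000470179, a retained intron transcript without the exons between 1 and 6, had 23, 203 and 0 counts across the MOCK libraries, against 4, 21 and 8 across those of CYGB. ENST00000422444, a protein coding model of 4 exons at the 3′ end, had 169 counts in MOCK replicate 1 and 0 in the other 5 libraries. ENST00000409475, a protein coding model of 2443 bases and 20 exons, had 56, 0 and 71 counts across the MOCK libraries, against 0, 0 and 14 across those of CYGB. Each of these 3 transcripts had 0 counts in at least 1 library and far more in another library of its group, and for none of them were the groups apart.

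ENST00000482051, a short processed transcript of 540 bases, had 14, 12 and 4 counts across the MOCK libraries, against 0, 17 and 3 across those of CYGB, with both groups in the same range. ENST00000423035, annotated as a target of nonsense-mediated decay, had 4, 5 and 0 counts across the MOCK libraries, against 8, 1 and 12 across those of CYGB. ENST00000476250, a retained intron of 725 bases, had 3, 12 and 1 counts across the MOCK libraries, against 7, 1 and 5 across those of CYGB. In these 3 low transcripts the groups overlapped. The other 3 transcripts had at most 8 counts in any library. How reads were divided among these transcripts is not given in the sources used here. Only 1.65% of the 150-base windows of ENST00000423035, 2.46% of those of ENST00000422444 and 6.23% of those of ENST00000409475 are found in no other PGAP1 transcript.

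Because the counts left in CYGB were assigned to transcripts shorter than the full-length one, the size of the PGAP1 difference depended on whether length was taken into account. The value per length rests on that division of few counts among transcripts, and how it was made is not given. In TPM, which divides each transcript's count by its length before scaling to the library, PGAP1 was at 4.74 ± 0.491 TPM (SD, n = 3) for MOCK against 1.14 ± 0.420 TPM (SD, n = 3) for CYGB. The direction and the separation of the groups were the same on this scale, with the lowest MOCK library 2.62-fold above the highest CYGB library, but the difference of the means was 4.15-fold in TPM against 17.4-fold in CPM. The full-length transcript alone was at 1.60 TPM in MOCK and 0.00117 TPM in CYGB. This scale was added after the data were seen.

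**Figure D1:**
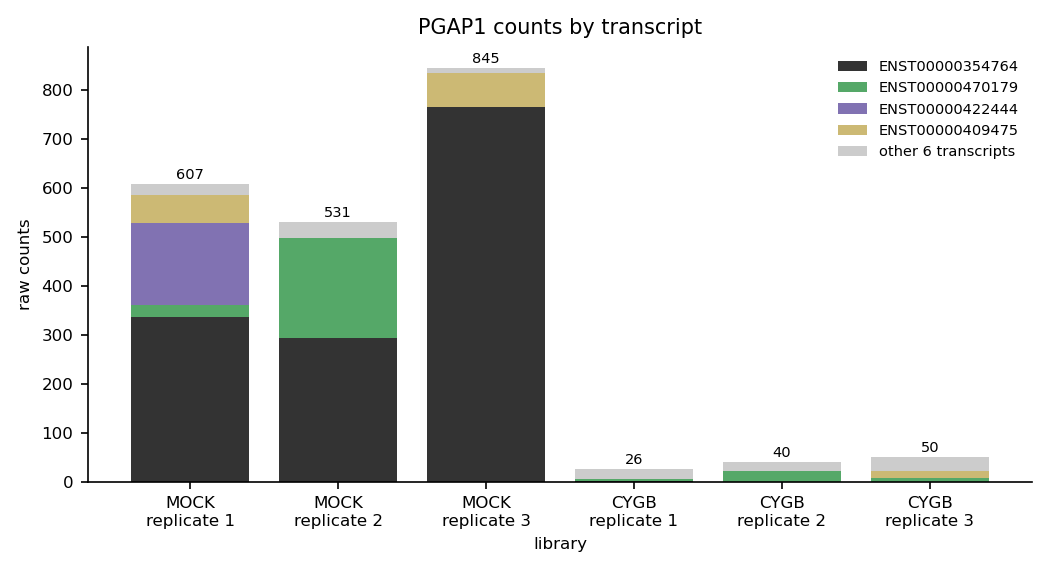
Raw counts of PGAP1 in each of the 6 libraries, stacked by transcript, with the gene total above each bar. The black part is the full-length transcript, which has 294 to 764 counts in MOCK and at most 1 in CYGB, and the makeup of the rest differs between replicates of a group.

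The genes around PGAP1 on chromosome 2 were compared to see whether they differed too. PGAP1 overlaps no other gene in the table. Of the 5 tested genes on each side, 0 of 10 were called (0.565% of all genes tested were called in either direction), 0 had an unadjusted p under 0.05 in edgeR's quasi-likelihood test, and all 10 had overlapping groups. Their log2 fold changes ran from -0.25 to 0.40. The nearest by start position was C2orf66, whose start lies 28.0 kb below that of PGAP1, at less than 1 CPM in every library. GTF3C3, a subunit of the RNA polymerase III factor TFIIIC, was at 83.7, 90.5 and 91.7 CPM in MOCK and 86.7, 85.1 and 81.9 CPM in CYGB. ANKRD44 on the other side was at 9.51, 8.88 and 8.57 CPM in MOCK and 8.21, 9.82 and 9.14 CPM in CYGB. The groups overlapped for both of these genes, whose log2 fold changes were -0.07 (standard error 0.08) and 0.01 (standard error 0.14).

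**Figure D2:**
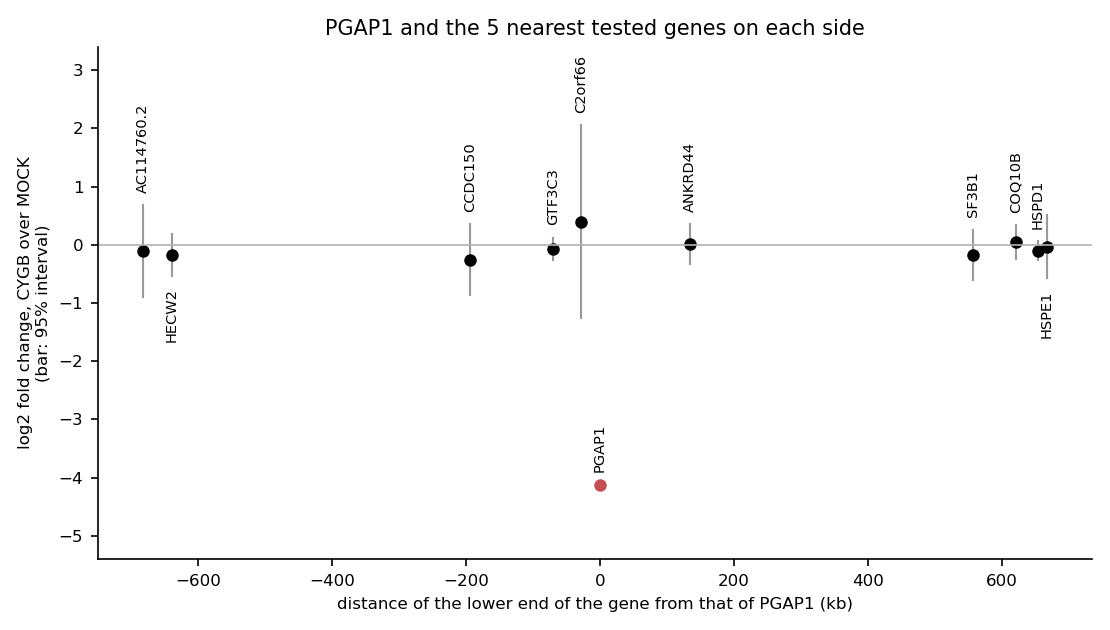
Log2 fold change of CYGB over MOCK for PGAP1 (red, without an interval) and the 5 nearest tested genes on each side (black, with 95% intervals), against distance in kb. The 10 neighbours lie between -0.25 and 0.40 while PGAP1 lies at -4.12.

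Of the other 30 genes of the pathway, none was called. The filter on low counts was passed by 29 of them, which ranged in log2 fold change from -0.24 to 0.72. None of the 29 passed this calling threshold in edgeR's quasi-likelihood test, while 0.28% of all genes were called higher and 0.285% lower. None had an adjusted p under 0.05 with Benjamini-Hochberg adjustment (0.055% of all genes), and 0 had an unadjusted p under 0.05 (4.54% of all genes). With DESeq2, 0 were called (1.32% of all genes), 0 had an adjusted p under 0.05 (0.543%) and 1, MPDU1, had an unadjusted p under 0.05 (6.14%). The lowest adjusted p of the 29 genes was 0.963 in edgeR and 0.794 in DESeq2. Their median log2 fold change was 0.05, against -0.01 over all genes tested, with 19 values above 0 and 10 below. For 25 of the 29 genes the 95% interval lay within a 2-fold difference in either direction, as it did for 56.0% of all genes tested. The exceptions were PIGH, PIGX, PIGQ and PIGO, for which a difference over 2-fold lay within the interval.

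**Figure D3:**
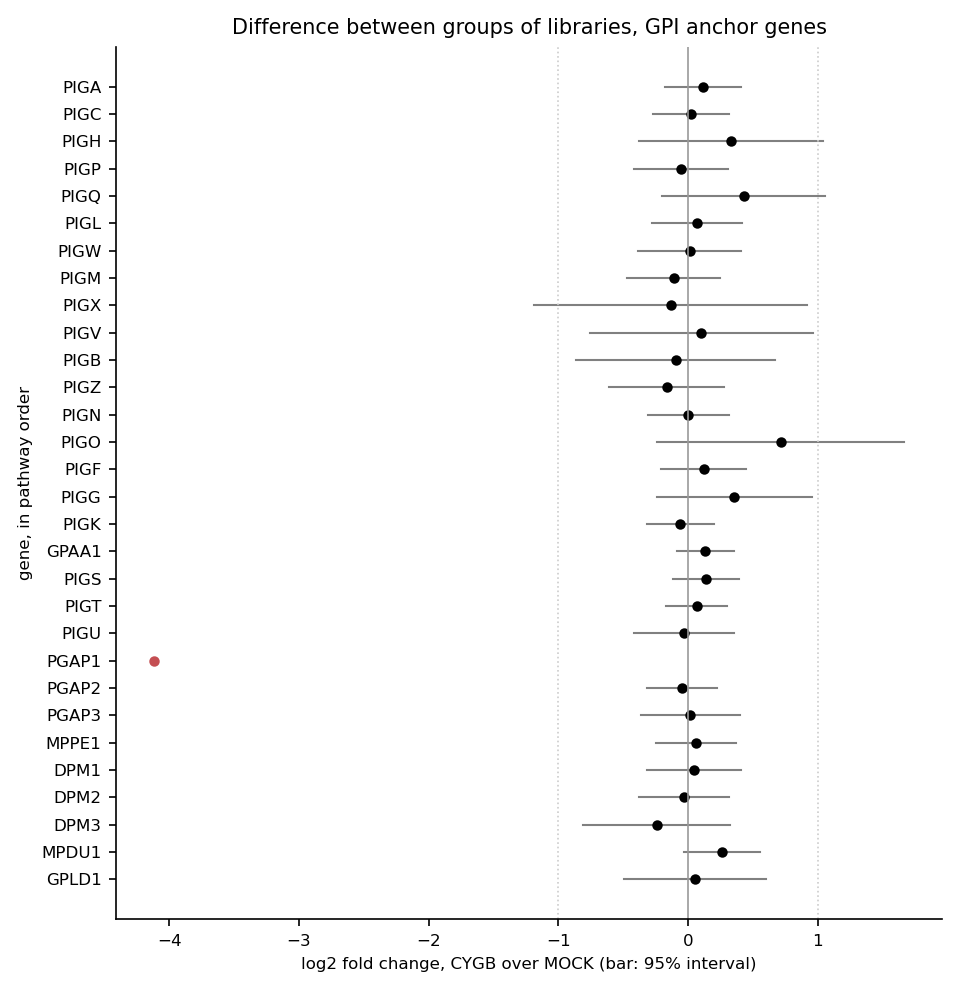
Log2 fold change of CYGB over MOCK for the 30 tested genes in pathway order, with 95% intervals for all but PGAP1 (red) and dotted lines at a 2-fold difference. The intervals of all 29 other genes include 0, and their points lie between -0.24 and 0.72.

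The first step, the transfer of N-acetylglucosamine to phosphatidylinositol, is done by a complex of PIGA, its catalytic subunit, with PIGC, PIGH, PIGP, PIGQ and the small subunit PIGY. The log2 fold changes of PIGA, PIGC and PIGP were 0.12, 0.02 and -0.06. PIGH was at 10.4, 20.6 and 21.2 CPM in MOCK and 24.9, 20.2 and 20.7 CPM in CYGB, where the low value of MOCK replicate 1 stands apart from the other 5 libraries. Its log2 fold change was 0.33 with all libraries and 0.07 without MOCK replicate 1. PIGQ was at 11.2, 11.4 and 7.65 CPM in MOCK and 17.7, 12.3 and 10.8 CPM in CYGB, with a log2 fold change of 0.43 (standard error 0.26) and overlapping groups. PIGY, whose only transcript in the table lies within PYURF, had 3 counts in each of the 6 libraries, and so was not tested. PYURF, on the same strand, was at 54.1, 53.0 and 41.9 CPM in MOCK and 46.1, 47.4 and 22.3 CPM in CYGB. Its groups overlapped. Reads of the shared stretch may have been counted to PYURF, so the PIGY count is no measure of its expression.

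PIGL, which removes the acetyl group, and PIGW, which adds the acyl chain that PGAP1 later removes, follow the first step. PIGW was at 23.1, 17.5 and 19.2 CPM in MOCK and 22.5, 20.4 and 17.5 CPM in CYGB. The PIGW groups overlapped over nearly their whole range, and its log2 fold change was 0.02 with a 95% interval of -0.38 to 0.41. For PIGL the log2 fold change was 0.07, with an interval of -0.27 to 0.42.

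Mannose is added in turn by PIGM with its partner PIGX, by PIGV, by PIGB and by PIGZ. Of these 5 genes 4 had a log2 fold change below 0, from -0.16 for PIGZ to -0.10 for PIGB, and PIGV was at 0.10. PIGX and PIGV were the members with the most uneven replicates of this step. PIGX was at 22.6, 22.5 and 14.0 CPM in MOCK and 25, 8.13 and 20.8 CPM in CYGB, so that the CYGB libraries held both its highest and its lowest value. Its most abundant transcript, ENST00000392391, varied in the same way, with 947, 1027 and 622 counts across the MOCK libraries, against 1095, 191 and 938 across those of CYGB. PIGV was at 12.2, 6.09 and 16.1 CPM in MOCK and 10.6, 13.3 and 13.1 CPM in CYGB, with the CYGB values inside the range of MOCK.

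Ethanolamine phosphate is added by PIGN to the first mannose, by PIGO with its partner PIGF to the third and by PIGG with PIGF to the second. This step held 1 of the 2 members whose groups did not overlap, both higher in CYGB. Over all genes tested, 5.72% had groups that did not overlap with CYGB higher and 5.31% with CYGB lower. PIGO (ENSG00000165282, chromosome 9 from 35088688 to 35096601, minus strand) was at 2.86, 7.53 and 7.50 CPM in MOCK and 8.49, 9.09 and 11.8 CPM in CYGB. MOCK replicate 1 was the lowest library by far, and the other MOCK libraries lay close below the CYGB range. The means were 5.96 ± 2.69 CPM (SD, n = 3) for MOCK and 9.80 ± 1.77 CPM (SD, n = 3) for CYGB. Its log2 fold change was 0.72 (standard error 0.39, 95% interval -0.24 to 1.67), with an adjusted p of 0.963 in edgeR's quasi-likelihood test, and it was 0.38 without MOCK replicate 1. The difference did not pass the test. PIGN stood at a log2 fold change of 0.00, PIGF at 0.12 and PIGG at 0.36, with overlapping groups for all 3.

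The transamidase, which cuts the protein's carboxy-terminal signal and joins the anchor to it, consists of PIGK, the catalytic subunit, with GPAA1, PIGS, PIGT and PIGU. GPAA1, PIGT, PIGS and PIGK had the 4 smallest standard errors of the log2 fold change among the members, 0.09 to 0.11, and PIGU had one of 0.16. In CPM all 5 had overlapping groups. Per length, GPAA1 was at 88.3, 87.3 and 93.2 TPM in MOCK and 101.6, 110.1 and 96.9 TPM in CYGB, where the groups did not overlap. The share of all genes with groups apart was counted in CPM only, so nothing is read from this. PIGT was at 94.7, 93.3 and 88.6 CPM in MOCK and 87.6, 95.9 and 106.4 CPM in CYGB, and its log2 fold change was 0.07 with a 95% interval of -0.17 to 0.30. The log2 fold changes of the other subunits were -0.06 for PIGK, 0.13 for GPAA1, 0.14 for PIGS and -0.03 for PIGU, and the intervals of all 5 excluded a 2-fold difference.

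Remodelling goes on after PGAP1 with MPPE1, which removes the ethanolamine phosphate from the second mannose, and with PGAP3 and PGAP2, which take part in the exchange of a fatty acid in the Golgi. None of these 3 genes was called. PGAP2 was at 28.3, 28.8 and 24.9 CPM in MOCK and 26.1, 26.2 and 27.2 CPM in CYGB. PGAP3 was at 13.8, 13.1 and 14.0 CPM in MOCK and 11.6, 13.9 and 16.0 CPM in CYGB. MPPE1 was at 14.7, 16.3 and 17.9 CPM in MOCK and 17.0, 17.5 and 16.5 CPM in CYGB. In all 3 genes the CYGB and MOCK libraries overlapped. Their log2 fold changes were -0.05, 0.02 and 0.06, with 95% intervals of -0.31 to 0.22, -0.36 to 0.40 and -0.25 to 0.37. GPLD1, a phospholipase that releases anchored proteins from the membrane, was low, at 2.33 to 3.63 CPM over all libraries, with a log2 fold change of 0.05.

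The mannose of the anchor comes from dolichol phosphate mannose, made by DPM1 with DPM2 and DPM3, and MPDU1 is needed for its use. MPDU1 (ENSG00000129255, chromosome 17 from 7583529 to 7592789, plus strand) was the other member whose groups did not overlap. It was at 24.9, 21.2 and 24.5 CPM in MOCK and 28.4, 29.8 and 26.4 CPM in CYGB. All 3 CYGB libraries lay above all 3 MOCK libraries, by a small margin. The means were 23.5 ± 2.04 CPM (SD, n = 3) and 28.2 ± 1.73 CPM (SD, n = 3). The log2 fold change was 0.26 (standard error 0.12, 95% interval -0.03 to 0.55), with an unadjusted p of 0.0727 and an adjusted p of 0.963 in edgeR's quasi-likelihood test and of 0.0456 and 0.794 in DESeq2. DPM1 and DPM2 were at log2 fold changes of 0.05 and -0.03, and DPM3, at -0.24, had the lowest value of the 29 genes but overlapping groups.

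Per length, the pathway's genes differed widely in level. In MOCK the highest were DPM3 at 107.8 ± 18.2 TPM, DPM1 at 106.1 ± 18.0 TPM, PIGT at 96.8 ± 2.58 TPM and GPAA1 at 89.6 ± 3.17 TPM (SD, n = 3 each), where the first 3 did not differ from each other beyond their spread. PGAP1 was 27th of the 31 genes in MOCK, next to PIGM at 5.25 ± 0.312 TPM (SD, n = 3), from which it did not differ beyond the spread. Below it were PIGZ at 3.07, PIGO at 2.89, GPLD1 at 1.93 and PIGY at 0.529 TPM. The PIGY value leaves out any reads counted to PYURF. In CYGB the mean PGAP1 level of 1.14 TPM was below that of GPLD1 (2.17 TPM), the next gene up, and above that of PIGY (0.530 TPM).

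**Figure D4:**
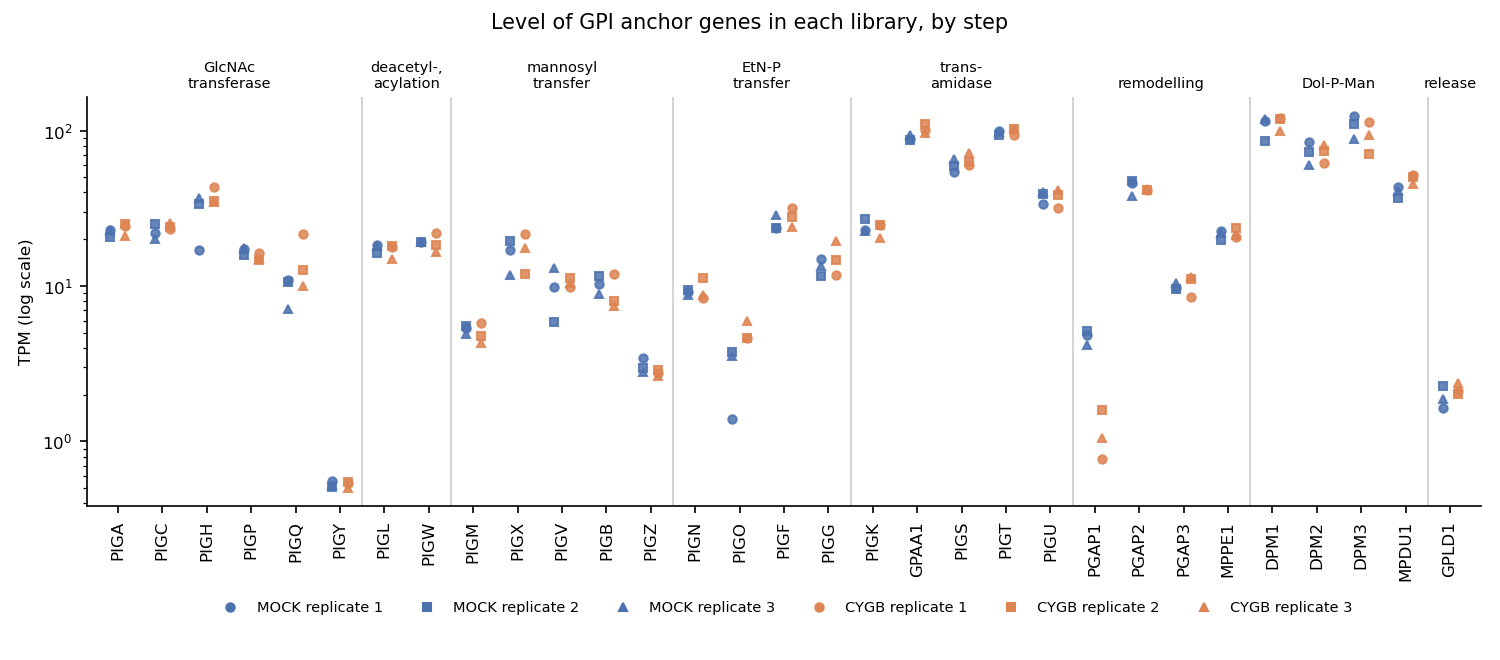
Level of each of the 31 genes in TPM (log scale) in the 3 MOCK (blue) and 3 CYGB (orange) libraries, with genes grouped by step of the pathway. The CYGB points of PGAP1 lie apart from its MOCK points, PIGO, MPDU1 and GPAA1 separate narrowly with CYGB higher, and MOCK replicate 1 is low for PIGH and PIGO. The share of all genes that separate in TPM was not counted.

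Some of these gene counts are less certain than the number of reads would make them. For 16 of the other 30 members a gene on the opposite strand with at least 10 counts overlaps, among them NUP98 for PGAP2, ERBB2 for PGAP3 and MYO19 for PIGW. MPDU1, whose groups did not overlap, has FXR2, SOX15 and AC016876.1 on the opposite strand. Mean counts in MOCK and CYGB were 5249 and 5223 for FXR2, 107 and 118 for SOX15, and 29.7 and 61.7 for AC016876.1. Their part in the MPDU1 difference was not tested. Whether counting used the strand is not given in the sources used here, so reads of such pairs may not be told apart. Processed copies of members are in the table too, of which PIGCP1 had 204 to 250 counts per library.

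The transcripts of the other members were fitted together with all transcripts that carry a gene. Of 421 such transcripts 205 passed the filter. The calling threshold given above was passed by 3 of the 205 (1.46%), all higher in CYGB, and by 1.02% of all transcripts tested, of which 0.54% were higher and 0.482% lower (percent of those tested). None had an adjusted p under 0.05 in edgeR's quasi-likelihood test (0.015% of all transcripts), and 4 had an unadjusted p under 0.05 (1.95%, against 3.78% of all transcripts). With DESeq2, 4 of the 205 were called (2.26% of all transcripts) and 3 had an adjusted p under 0.05 (1.14%). The 3 transcripts called in edgeR, which are also those 3, reached the filter's level in 3 CYGB libraries each and in at most 1 MOCK library, so they passed the filter through the group where they are high. Their direction followed from that, their counts are given without p-values, and nothing is read from their number.

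A PIGT transcript annotated as a target of nonsense-mediated decay, ENST00000638671, had 0 counts in all MOCK libraries and 67, 134 and 98 counts in CYGB replicates 1 to 3. This was 1.51 to 2.75% of the PIGT counts of those libraries. A PIGN transcript of the same class, ENST00000640170, had 0 counts in all MOCK libraries and 14, 16 and 11 counts in CYGB. For both transcripts, 0% of the 150-base windows were their own, since each window also occurs elsewhere among the isoforms of that gene. A retained intron of GPAA1, ENST00000525308, had 8, 21 and 9 counts across the MOCK libraries, against 75, 59 and 72 across those of CYGB, with 17.9% of its windows its own. It held 1.34 to 1.89% of the GPAA1 counts in CYGB. The GPAA1 call was lost without MOCK replicate 3, and the PIGN call was lost without CYGB replicate 1, 2 or 3. The PIGT call held with each library left out in turn. That is no support for a difference, since the filter admitted the transcript through the CYGB group. With a filter at a mean of 50 counts 0 member transcripts were called. The means of these 3 transcripts over all libraries lie below that filter, so they were left out and not tested again. The gene sums of PIGT, PIGN and GPAA1 overlapped between the groups in CPM.

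Transcript counts of the members varied much more between replicates than their gene sums. Of the 119 member transcripts with at least 100 counts in a library, 31 (26.1%) had 0 counts in another library of the same group, as did 14.9% of all 37118 such transcripts. For member genes this happened in 0 of 30. The PIGT transcript ENST00000638978 had 450, 0 and 0 counts across the MOCK libraries, against 419, 0 and 0 across those of CYGB, while the PIGT gene sum stayed between 87.6 and 106.4 CPM. The transcript with the most counts was the same in all 6 libraries for 16 of the other 30 members and not for 14.

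Genes whose products meet the pathway were taken from hand-written lists. Of 10 further genes tied to GPI synthesis, 8 were in the table and 7 were tested. Of the p24 cargo receptors 9 of 9 were tested, and of genes that supply dolichol and mannose donors 13 of 13. In these lists 0 genes were called (0.565% of all genes) and 0 had an unadjusted p under 0.05 in edgeR's quasi-likelihood test, with median log2 fold changes of 0.06, 0.11 and 0.05. By the rule for naming genes, TMEM8A, a candidate lipase for the anchor, was at 46.6, 54.2 and 59.8 CPM in MOCK and 62.0, 60.6 and 68.2 CPM in CYGB. TMED9, a p24 receptor, was at 271.0, 231.6 and 259.2 CPM in MOCK and 277.1, 274.5 and 300.7 CPM in CYGB. The groups of each did not overlap, with log2 fold changes of 0.25 (standard error 0.12) and 0.16 (standard error 0.09), and neither reached an unadjusted p of 0.05. TMED6, a p24 receptor under the 10 CPM asked of named genes, had groups apart with CYGB lower. Its means were 1.25 CPM in MOCK and 0.871 CPM in CYGB (log2 fold change -0.52, standard error 0.23). Over all genes tested, 5.72% had groups apart with CYGB higher and 5.31% with CYGB lower. TMED1, another p24 receptor, was at 34.6, 12.4 and 11.9 CPM in MOCK and 30.3, 31.1 and 31.4 CPM in CYGB, with MOCK replicate 1 above all CYGB libraries and the other 2 MOCK libraries below them. It was called, at a log2 fold change of 1.34, only in the fit without MOCK replicate 1 (adjusted p = 0.176 in edgeR's quasi-likelihood test).

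Of 79 genes that encode GPI-anchored proteins, the cargo of the pathway, 75 were in the table and 49 were tested. None was called (0.565% of all genes) and 2, NT5E and LYPD3, had an unadjusted p under 0.05 in edgeR's quasi-likelihood test (4.54% of all genes), with lowest adjusted p of 0.963. Their median log2 fold change was -0.05, from -1.11 to 1.07, with 22 above 0 and 27 below. The groups did not overlap for 11 of the 49 tested genes, with 7 higher in CYGB and 4 lower. Over all genes 11.0% did not overlap, 5.72% with CYGB higher and 5.31% with CYGB lower. The share in this list was above that of all genes in both directions. This was not tested, and the list was written with earlier results of these data known.

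NT5E (CD73), an ecto-nucleotidase, was at 219.3, 236.1 and 225.3 CPM in MOCK and 248.8, 268.9 and 258.5 CPM in CYGB, with a log2 fold change of 0.19 (standard error 0.07). PRNP, the prion protein gene, was at 35.8, 188.4 and 186.0 CPM in MOCK and 193.1, 196.4 and 189.2 CPM in CYGB. Here MOCK replicate 1 was far below the other 5 libraries, which differed little, and the log2 fold change of 0.50 had a standard error of 0.57. LYPD3 was at 23.4, 21.3 and 24.7 CPM in MOCK and 26.6, 29.3 and 29.1 CPM in CYGB (log2 fold change 0.29). The NK cell ligand ULBP3 was at a log2 fold change of 0.21 and carboxypeptidase M at -0.22, each with groups that did not overlap. The genes CD109, CD59 and CD55, picked after their values were seen, were at log2 fold changes of 0.00, 0.19 and -0.02, with overlapping groups. They do not stand for the rest of the list. RNA levels of these genes say nothing of how much protein carried an anchor, which was not measured here.

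**Figure D5:**
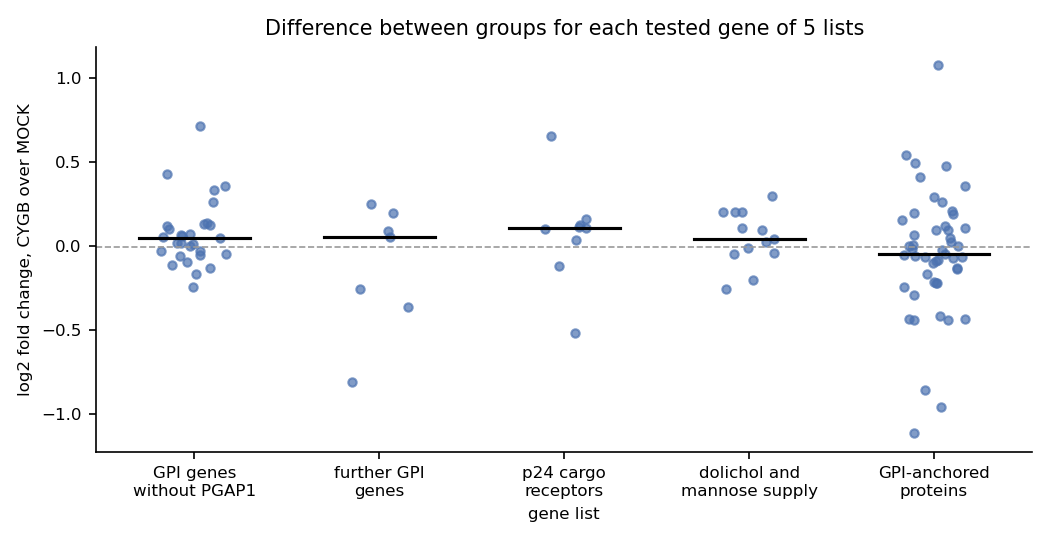
Log2 fold change of CYGB over MOCK for each tested gene of 5 lists, with the median of each list as a bar and the median of all genes tested as a dashed line. The medians lie between -0.05 and 0.11, and PGAP1 is not drawn.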

How the data were processed

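Total RNA was sequenced as paired-end 150-base reads from libraries made with a NEBNext Ultra kit. The authors deposited 1 table for all 6 libraries, holding raw counts for each transcript that they had not normalized. The submitters' processing notes name HISAT, HISAT2, DESeq2 and hg19, but of the 151393 transcripts found in GENCODE 29, 99.6% sit at its positions, so GRCh38 coordinates are given. The counting tool, its use of strand and its division of reads among isoforms are not given in the sources used here.

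Counts were summed per gene, and 21225 transcripts without a gene entered neither library sizes nor tests. Genes and, separately, transcripts were filtered with filterByExpr (minimum count 10), normalized by TMM and fitted with edgeR 4.0.16 (glmQLFit, glmQLFTest), CYGB against MOCK, in R 4.3.3 without a block. The Benjamini-Hochberg adjustment ran over all 19987 genes or 66609 transcripts tested. CPM used TMM-scaled library sizes, and TPM used GENCODE 29 transcript lengths. Intervals are the log2 fold change ± the 95% t quantile times its standard error. The common biological coefficient of variation came to 36.6% (genes) and 78.9% (transcripts).

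The members and all gene lists were chosen with earlier results of these data known. Library values are given for PGAP1 and for members with groups that do not overlap or an unadjusted p under 0.05. PIGH, PIGQ, PIGX, PIGV, PIGW, PIGT, GPAA1 (in TPM) and the remodelling genes were added after their values were seen. So were C2orf66, GTF3C3, ANKRD44, PYURF, TMED1, TMED6, NT5E, CD109, CD59 and CD55. From a related list, called genes and at most 4 genes without overlap, reaching 10 CPM in a group, were named by size of difference, and transcripts with at least 10 counts (PGAP1) or past the threshold (others). ENST00000392391 and ENST00000638978 were chosen after their values were seen. DESeq2 1.42.0, its size factors, no filter, a filter at a mean of 50 counts, a replicate block, PGAP1's most abundant transcript and leaving out each library were the alternatives, and TPM was added later. The steps were tested on simulated counts. There, no transcript given a known change reached an adjusted p under 0.05 in edgeR, so the lack of such member transcripts tells little. Protein levels, immunoblots and database samples were not analysed here.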

Additional observations from a re-analysis of the deposited data

How the results depend on the processing

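The count of pathway genes other than PGAP1 past the threshold of the methods, and at an adjusted p under 0.05, was 0 under every alternative run, and the lowest adjusted p of such a gene was 0.784 over the edgeR alternatives (quasi-likelihood test) and 0.794 with DESeq2. The PGAP1 log2 fold change was -4.12 to -4.13 under DESeq2, its size factors, both filters and the replicate block, and -4.32 to -3.91 with a library left out. It was -9.99 for the most abundant transcript, a value that depends on the prior count and is no bound. Per length it was -2.05 (TPM, added after seeing the data), where the counts left in CYGB were assigned to shorter transcripts. The median of the other genes was 0.04 to 0.05 with a library left out.

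The count of 3 called transcripts of other members became 0 with a mean of at least 50 counts, where 109 transcripts were tested in place of 205. That filter left out all 3, whose means lie below it, so it was no second test of them. The count was also 0 with the replicate block. It was 3 to 6 with a library left out, being 5 without MOCK replicate 1 and 6 without MOCK replicate 3 or CYGB replicate 3. For the block the cause was not tested. Same-numbered libraries of the 2 groups did not deviate together (correlations 0.0159, 0.00487 and 0.0253), so the block pairs samples that share only a number; it changed no call of a gene. Of the related and neighbouring genes 0 were called, and 0 to 1 with a library left out: TMED1 (log2 fold change 1.34) without MOCK replicate 1, CD52 (6.37, near 0 counts in MOCK) without MOCK replicate 3 and GPC2 (-1.85) without CYGB replicate 3.

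The sign of 14 members held throughout. PIGN turned to -0.0012 with a mean of at least 50 counts. With a library left out, 15 members, none of them called, changed sign: DPM1 (-0.081 to 0.12), DPM2 (-0.11 to 0.078), GPLD1 (-0.083 to 0.25), MPPE1 (-0.0102 to 0.13), PGAP3 (-0.097 to 0.13), PIGB (-0.40 to 0.13), PIGC (-0.029 to 0.066), PIGK (-0.098 to 0.015), PIGN (-0.077 to 0.058), PIGP (-0.14 to 0.0196), PIGT (-0.0051 to 0.13), PIGU (-0.15 to 0.088), PIGV (-0.20 to 0.43), PIGW (-0.074 to 0.13) and PIGX (-0.45 to 0.21). PIGY, at 3 counts a library, did not pass the filter, and reads of the stretch it shares with PYURF may have been counted to that gene. Counts of PGAP1 transcripts in CYGB, at 1 to 21 where any were found, allow no comparison among them.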
